A study of Rattus norvegicus with 6 samples.

Results

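The mitochondrial ribosomal protein genes code for the protein shell of the ribosome inside mitochondria. They were taken here as every gene whose symbol is Mrpl or Mrps followed by a number and, at most, a single letter, which gave 70 of the 19780 gene symbols in the count table, 41 with an Mrpl and 29 with an Mrps symbol. The genes were compared in pancreas of male wild type Sprague-Dawley rats, 8 weeks old, an outbred laboratory strain. The 3 AP samples came from rats given L-arginine into the peritoneum, which in excess injures the exocrine pancreas and gives a model of acute pancreatitis (AP), and the 3 control samples from rats given saline. The labels give 5 mg/kg of L-arginine and 36 hours, whereas the design text gives 2 times 2.5 g/kg and 48 hours, and the sources used here do not settle which applied. RNA with a poly(A) tail was counted per gene in whole tissue. Whether each sample was its own animal is not spelled out in the labels, and the p-values below rest on the spread among the 3 samples of a group, which may be technical.

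Mitochondrial ribosomes translate only the messenger RNAs of mitochondrial DNA, which code for core subunits of the respiratory chain and of ATP synthase. Their ribosomal RNAs come from mitochondrial DNA, but all their proteins in mammals are coded in the nucleus, made in the cytosol and imported. Some of the proteins have counterparts in bacterial ribosomes and others are found only in mitochondria. The large subunit (symbols Mrpl) joins amino acids and holds the exit tunnel for the new chain, and the small subunit (symbols Mrps) holds the messenger RNA. Some symbols do not follow the structure: Mrps18a and Mrps30 code for proteins of the large subunit, and Mrps36 for a subunit of the 2-oxoglutarate dehydrogenase complex of the citric acid cycle. Pancreatic acinar cells, which make digestive enzymes, are rich in mitochondria that supply ATP for secretion.

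The libraries held 14453584 to 18196636 counts in control and 17404247 to 18961353 in AP. The control samples had the transcripts of pancreatic acinar cells: a list of 25 acinar marker genes, among them the trypsinogen Prss1, took 64.0% to 65.2% of the counts of named genes there and 1.09% to 7.78% in AP, with AP replicate 3 highest. In AP, 24 of those 25 genes were called lower, while 17 of 17 macrophage markers rose from a summed 0.0100% to 0.0130% of counts to 1.59% to 1.87%, and 11 of 12 fibroblast markers rose from 0.0527% to 0.0695% to 0.962% to 2.32%. The part of these cell types in the results on the ribosomal protein genes was not tested. In whole tissue, fewer cells of a type and less RNA per cell cannot be told apart.

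Promoters of members that moved differently are shown here because the proximal promoters of this family are known in mammals for sites of NRF1, of ETS factors such as GABP, and of YY1. Each runs from 250 bases before to 50 bases after the start of the gene in RefSeq on build GRCr8, printed 5′ to 3′ on the strand of the gene, and capitals mark every match, on either strand, to GCGC and TGCGC with any single base between them (NRF1), to CCGGAAG (ETS) or to AAGATGGC (YY1). Mrps21 (chr2:186103302-186103601, minus strand), the member with the most negative log2 fold change, holds 1 ETS match. Mrpl17 (chr1:169575650-169575949, minus strand), whose share of the family's counts went up, holds 1 NRF1 match, and Mrpl49 (chr1:212779278-212779577, minus strand), 1 of the 2 members called higher, holds 1 YY1 match. Mrps18b (chr20:2842756-2843055, plus strand), called lower, holds a match to all 3.
Mrps21: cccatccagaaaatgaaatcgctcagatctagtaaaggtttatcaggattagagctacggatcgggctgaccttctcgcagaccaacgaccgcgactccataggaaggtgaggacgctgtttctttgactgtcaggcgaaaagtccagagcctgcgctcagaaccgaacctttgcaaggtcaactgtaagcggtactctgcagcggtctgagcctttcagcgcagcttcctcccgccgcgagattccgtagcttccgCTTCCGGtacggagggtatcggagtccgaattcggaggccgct
Mrpl17: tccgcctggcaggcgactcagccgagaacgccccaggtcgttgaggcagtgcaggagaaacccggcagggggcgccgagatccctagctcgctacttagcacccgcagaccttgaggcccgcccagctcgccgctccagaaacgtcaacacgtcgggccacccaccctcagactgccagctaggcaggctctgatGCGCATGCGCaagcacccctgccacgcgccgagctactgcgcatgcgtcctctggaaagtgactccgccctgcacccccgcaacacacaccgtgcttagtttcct
Mrpl49: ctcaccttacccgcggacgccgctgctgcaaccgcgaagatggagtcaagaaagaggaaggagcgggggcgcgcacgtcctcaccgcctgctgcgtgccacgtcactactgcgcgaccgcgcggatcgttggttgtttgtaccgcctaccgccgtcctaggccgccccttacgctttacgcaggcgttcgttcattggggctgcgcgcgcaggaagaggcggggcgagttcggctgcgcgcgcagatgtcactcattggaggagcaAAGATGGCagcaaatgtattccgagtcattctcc
Mrps18b: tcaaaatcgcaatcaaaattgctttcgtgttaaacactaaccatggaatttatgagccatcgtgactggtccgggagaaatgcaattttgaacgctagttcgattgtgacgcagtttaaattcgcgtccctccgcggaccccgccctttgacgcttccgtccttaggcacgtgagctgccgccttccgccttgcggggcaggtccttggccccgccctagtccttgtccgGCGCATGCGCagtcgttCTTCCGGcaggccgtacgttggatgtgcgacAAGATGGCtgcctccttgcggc

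RefSeq promoters were matched by symbol for 55 of the 70 members. The YY1 letters were found in 14 of these 55 promoters (25.5%), against 3.44% of 27457 promoters of all rat genes and 5.24% of the 10361 promoters of tested genes. The ETS letters were found in 18 (32.7%), against 9.22% of all and 16.7% of tested genes, and the NRF1 letters in 9 (16.4%), against 4.71% and 9.59%. At least 1 of these 3 was found in 30 of the 55. The letters CCAAT were found in 25 (45.5%), against 37.7% of all promoters and 37.6% of those of tested genes, and TATAAA in 7 (12.7%), against 14.3% and 7.04%. Both strands were searched and each motif was counted once per promoter; the ETS and YY1 letters can share AAG where they run into each other. The YY1 letters began after the start of the gene in 10 of the 14 members, as in Mrpl49 and Mrps18b, and in 419 of the 945 promoters of all genes that held them (44.3%). These letters contain ATG, so a match after the start of the gene may be a start codon. That was not tested. Of 35 members with a promoter that were called lower in AP (as described next), 12 held the ETS, 7 the YY1 and 6 the NRF1 letters, and of the other 19 tested members 6, 7 and 3 did. A match is a run of letters and does not show binding.

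Relative to the middle of all transcripts, most of the family was lower in AP pancreas than in control. Of the 70 members, 69 had enough counts to be tested and 43 of these (62.3%) were called lower, against 30.5% of all 13240 tested genes, while 2 were called higher, against 34.1% of all. The other 24 did not pass the test. With TMM scaling 57 of the 69 had a negative log2 fold change, where the median over all tested genes was 0.07. A gene was called at an adjusted p of 0.05 in edgeR's quasi-likelihood test, with p-values adjusted by Benjamini-Hochberg over all tested genes, of which 64.6% were called in either direction. The untested member, Mrps17, had 6 counts over the 6 libraries together. Outside the rule, the table also writes mrpl9, mrpl11 and mrpl24 in lower case, with log2 fold changes of -0.66 (adjusted p = 0.0161), -0.31 (0.154) and 0.03 (0.900), and of 1.52, 1.86 and 2.20 with library totals.

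Over the tested members the median log2 fold change was -0.61, a 1.53-fold lower level, beside 0.07 over all tested genes. These directions are relative to the middle of the transcripts, which is what TMM scaling sets to no change. With library totals as the scale, a gene's level is its share of the reads, of which the acinar marker genes took far less in AP than in control. On that scale the median over all tested genes moved by 2.18 on the log2 scale to 2.25, the median of the members became 1.56, and 66 members were called higher (88.2% of all genes) and 1, Mrps21, lower (4.32% of all genes; 92.5% of all genes were called either way). The median of the members lay 0.69 below that of all tested genes under both scalings (-0.69 on the log2 scale). A change of scaling moves all genes by nearly the same amount, so this gap is kept by construction and is not a second result.

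**Figure D1:**
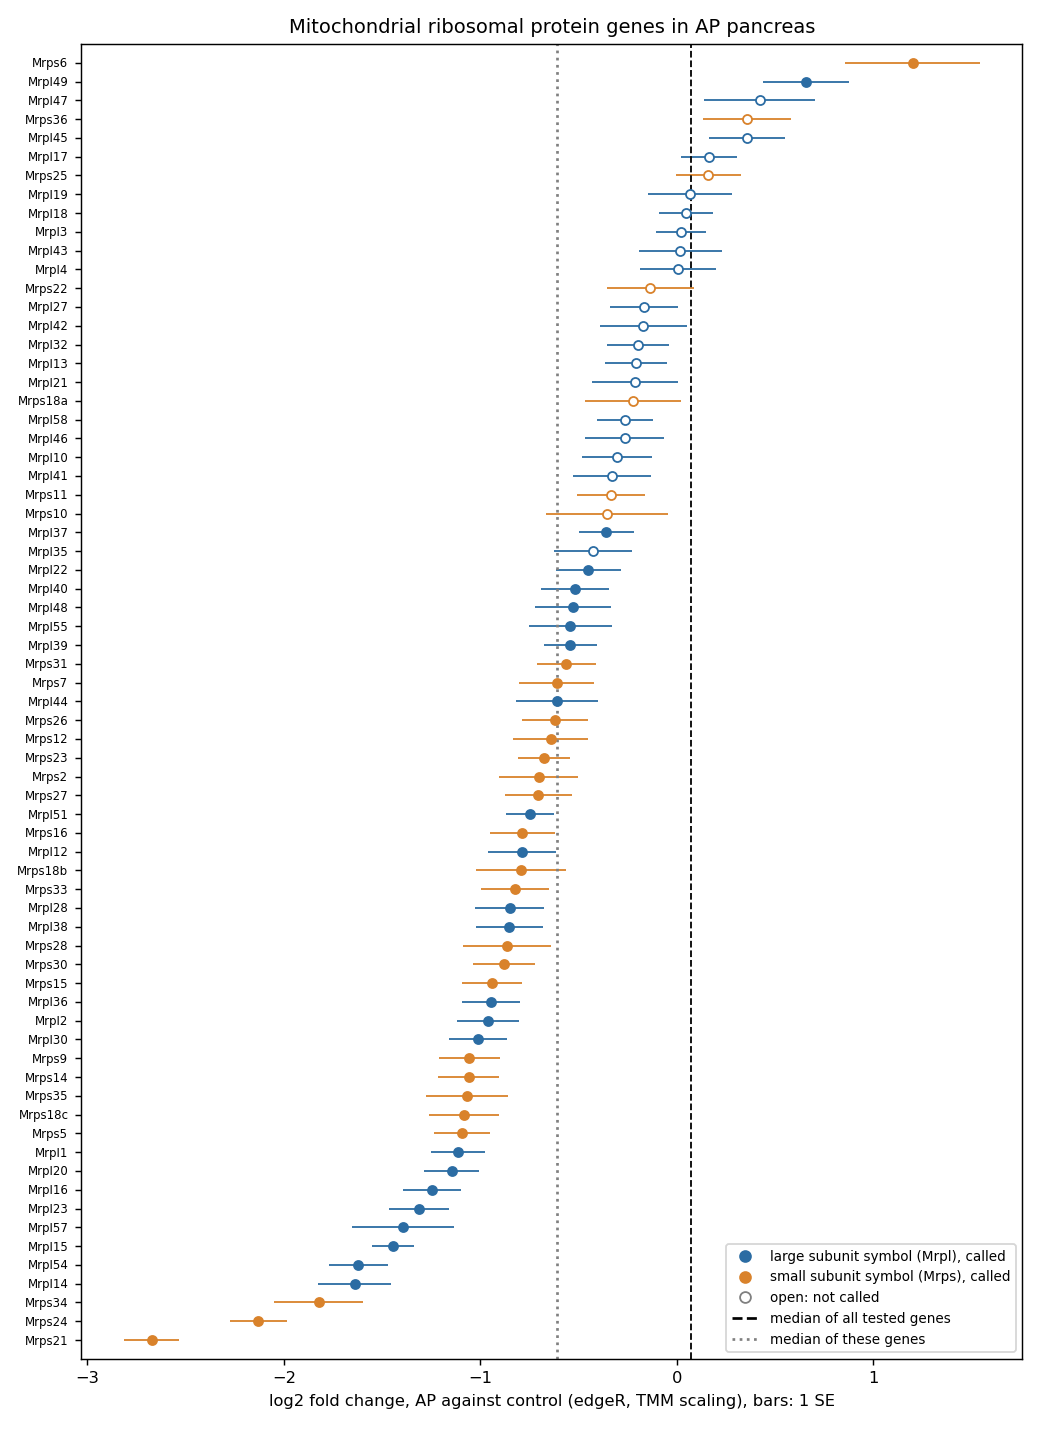
Log2 fold change of each of the 69 tested members in AP against control, with the standard error, sorted, with TMM scaling and edgeR's test on 3 samples per group. Points run from -2.67 for Mrps21 to 1.20 for Mrps6, 43 are called lower and 2 higher; with library totals as the scale all but Mrps21, Mrps24 and Mrps34 would be called higher.

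In normalised CPM, the counts scaled to a common library size after TMM, the AP and control samples did not overlap for 45 of the 69 members (65.2%), against 70.9% of all tested genes. For 43 of the 45 the AP samples were the lower ones, against 33.1% of all tested genes, and 42 of the 43 members called lower were among them. Summed over the family, the normalised CPM were 1610, 1569 and 1385 in the control samples and 845, 900 and 1010 in the AP samples, both in the order of their replicate numbers, as in all lists of values that follow. Every AP sample was below every control sample, and AP replicate 3, the AP sample with the most acinar transcripts, was the highest of the AP samples. A link between acinar transcripts and the level of the family was not tested.

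How the family stood depended on what it was set against, as ratios of counts within a library show without any scaling between libraries. The family took 0.0754%, 0.0746% and 0.0646% of the counts of named genes in control and 0.189%, 0.194% and 0.201% in AP, a mean of 0.0715% ± 0.00603 (SD, n = 3) against 0.195% ± 0.00631 (SD, n = 3), 2.72-fold higher. With the 25 acinar marker genes left out of the total, the shares were 0.209%, 0.214% and 0.186% in control and 0.191%, 0.196% and 0.218% in AP. There the groups overlapped, with means of 0.203% ± 0.0153 (SD, n = 3) and 0.202% ± 0.0146 (SD, n = 3), and an exact two-sided permutation test gave p = 1. The first comparison gave p = 0.1 in the same exact test, the smallest p that 3 samples against 3 allow, so no ratio could pass a threshold of 0.05.

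Set against the respiratory chain, the cytosolic ribosome or the mitochondrial genome, the family's counts were higher in AP. Per count of 71 nuclear genes of the respiratory chain and ATP synthase, the family had 0.291, 0.269 and 0.279 counts in control and 0.299, 0.298 and 0.314 in AP. The groups did not overlap but lay close, 0.280 ± 0.0109 against 0.304 ± 0.00897 (SD, n = 3 each), a ratio of 1.09 (exact permutation p = 0.1). Per count of 77 cytosolic ribosomal protein genes it had 0.0361, 0.0330 and 0.0370 counts in control and 0.0512, 0.0584 and 0.0582 in AP, 1.58-fold higher (exact permutation p = 0.1). Per count of the genes of mitochondrial DNA it had 0.0362, 0.0323 and 0.0269 counts in control and 0.0481, 0.0551 and 0.0464 in AP, 1.57-fold higher (exact permutation p = 0.1). Messenger RNAs of mitochondrial DNA carry short poly(A) tails, so their capture need not match that of nuclear transcripts.

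**Figure D2:**
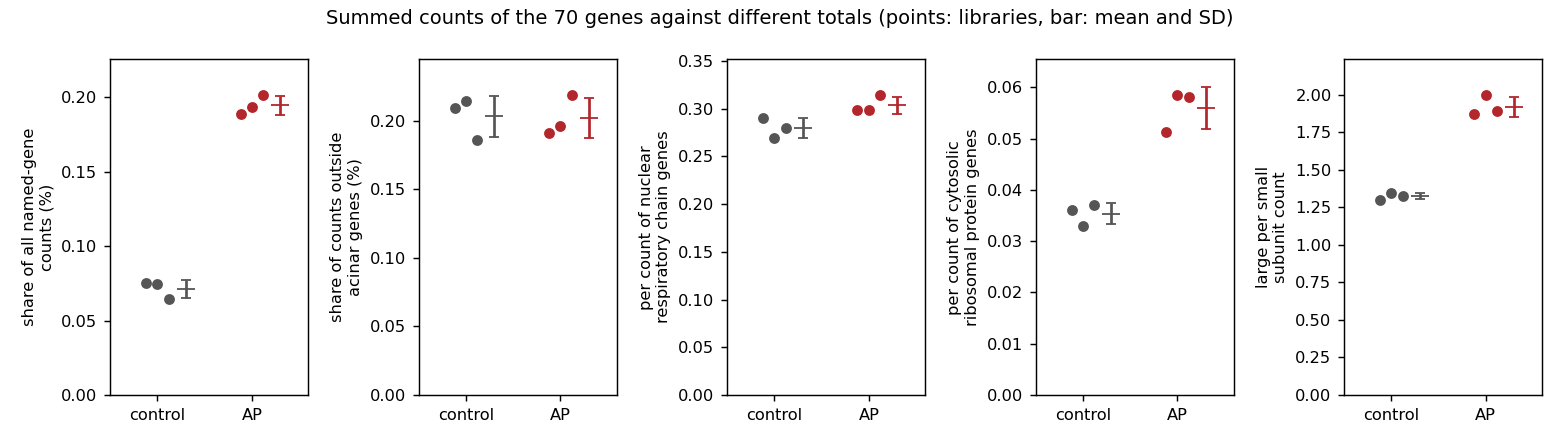
Summed counts of the family in each library, divided by the total named on each vertical axis, for 3 control and 3 AP samples, with bars for the group mean and SD. The last panel shows the summed counts of Mrpl symbols divided by those of Mrps symbols. AP is 2.72-fold higher as a share of all named-gene counts, overlaps control once acinar marker genes are left out, and is 1.58-fold higher per cytosolic ribosomal protein count.

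The small subunit symbols were lower in AP than the large subunit symbols, relative to each other. The ratio of summed Mrpl to summed Mrps counts was 1.30, 1.35 and 1.33 in control and 1.87, 2.00 and 1.89 in AP, with no overlap. The means were 1.33 ± 0.0232 and 1.92 ± 0.0667 (SD, n = 3 each), a 1.45-fold difference (exact permutation p = 0.1). A single gene, Mrps21, carried part of it: without Mrps21, an alternative chosen after its values were seen, the ratio was 1.66, 1.66 and 1.71 in control and 2.00, 2.15 and 2.03 in AP, a 1.23-fold difference that still did not overlap.

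Of 28 tested Mrps genes, 21 were called lower and 1 higher, with a median log2 fold change of -0.75, and of 41 tested Mrpl genes 22 were called lower and 1 higher, with a median of -0.45. With library totals as the scale these medians were 1.42 and 1.73, so the sign changed. Their order is kept by construction, because a change of scaling moves all genes nearly alike. Within each subunit, proteins with and without bacterial counterparts were close. In the large subunit, 13 of 25 genes with bacterial counterparts were called lower (median -0.45) and 10 of 18 mitochondria-specific ones (median -0.44). In the small subunit, 12 of 15 and 8 of 10 were called lower, with medians of -0.87 and -0.69. Among proteins around the exit tunnel 4 of 7 were called lower (median -0.45), and among those of the central protuberance, the crest of the large subunit, 4 of 7 (median -0.52). All these counts of lower calls are with TMM scaling; with library totals every one of these genes but Mrps21, Mrps24 and Mrps34 was called higher.

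Mrps21, the counterpart of bacterial small subunit protein S21, had the most negative log2 fold change of the family. Its normalised CPM were 150, 125 and 132 in control and 18.4, 21.4 and 23.9 in AP, so every AP sample was far below every control sample. It was 6.38-fold lower (log2 fold change -2.67 ± 0.14 SE, edgeR adjusted p = 1.92e-06), and it was also the only tested member called lower with library totals (log2 fold change -0.50, adjusted p = 0.00395). Its raw counts, 1208, 986 and 820 in control and 747, 859 and 813 in AP, overlap between the groups while the family's summed counts were 8616 to 12965 in control and 34266 to 36179 in AP. It took 9.32%, 7.94% and 9.52% of the family's counts in control and 2.18%, 2.37% and 2.37% in AP, shares of reads that are not corrected for transcript length. The RefSeq gene table holds 1 pseudogene named after Mrps21, and reads shared with a near-identical copy could be split or left uncounted.

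Mrps24, whose bacterial counterpart lines the entry of the messenger RNA channel, had normalised CPM of 35.9, 32.6 and 33.7 in control and 6.63, 8.26 and 8.44 in AP. The groups were well apart. It was 4.38-fold lower with TMM scaling (log2 fold change -2.13 ± 0.15 SE, edgeR adjusted p = 5.88e-06), while with library totals the log2 fold change was 0.04 and not called. Mrps34, a mitochondria-specific small subunit protein, had 42.0, 34.9 and 28.3 in control and 7.74, 9.13 and 12.9 in AP. Control varied more here, yet its lowest sample stayed above the highest AP sample; the gene was 3.54-fold lower with TMM scaling (-1.82 ± 0.23 SE, edgeR adjusted p = 0.000161) and 0.34 with library totals, not called.

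In the large subunit, the most negative log2 fold change was that of Mrpl14, which lies at the face between the subunits. Its normalised CPM were 25.7, 21.5 and 17.5 in control and 6.19, 6.82 and 7.80 in AP. It was 3.12-fold lower with TMM scaling (log2 fold change -1.64 ± 0.19 SE, edgeR adjusted p = 9.43e-05) and higher by 0.53 with library totals. It overlaps Tmem63b in the RefSeq table, whose own log2 fold change was -2.44, and no source used here says whether counting used strand, so reads of the overlap cannot be assigned. Mrpl54, a mitochondria-specific protein, had 33.6, 38.3 and 32.6 in control and 9.52, 12.1 and 12.4 in AP. Those groups did not overlap, and it was 3.08-fold lower with TMM scaling (edgeR adjusted p = 2.98e-05) and higher by 0.55 with library totals.

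Mrpl15, a core protein with a bacterial counterpart, had 58.5, 62.0 and 62.5 normalised CPM in control and 22.2, 21.0 and 23.9 in AP. Both groups were tight, and it was 2.72-fold lower with TMM scaling (log2 fold change -1.45 ± 0.11 SE, edgeR adjusted p = 1.01e-05) and higher by 0.73 with library totals. Mrpl23, a protein of the exit tunnel's rim, had 28.8, 29.3 and 23.3 in control and 9.67, 11.4 and 11.7 in AP, with a log2 fold change of -1.31 ± 0.15 SE (edgeR adjusted p = 0.000104; 0.86 with library totals). Mrpl20, whose bacterial counterpart is needed early in assembly of the large subunit, had 47.9, 47.9 and 37.3 in control and 18.3, 20.4 and 21.5 in AP, with -1.15 ± 0.14 SE (edgeR adjusted p = 0.000149; 1.03 with library totals). In all 3 genes every AP sample was below every control sample in normalised CPM. Mrpl57, a mitochondria-specific protein, had 8.44, 5.56 and 7.23 in control and 2.44, 2.44 and 3.21 in AP, with no overlap, and a log2 fold change of -1.39 ± 0.26 SE (edgeR adjusted p = 0.00162; 0.78 with library totals).

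**Figure D3:**
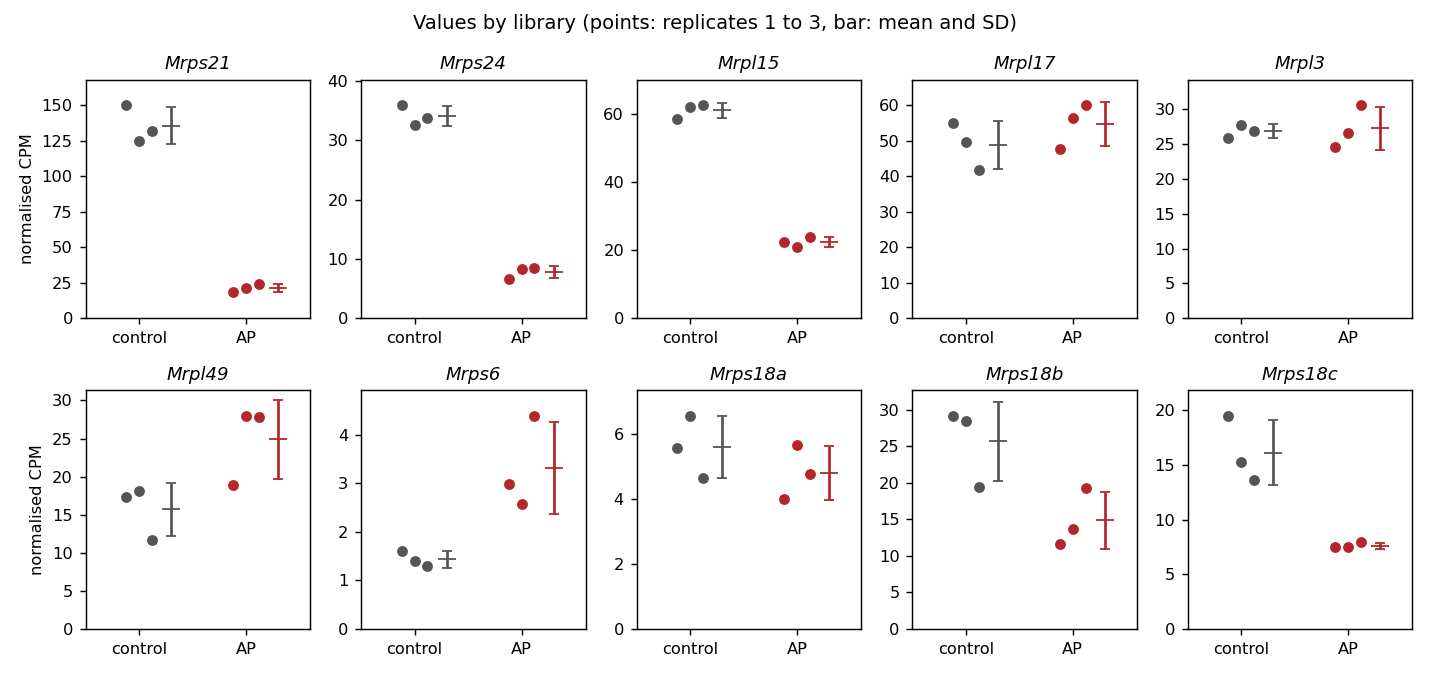
Normalised CPM (TMM scaling) of selected members in each control and AP sample, 1 panel per gene with its own axis from 0, and bars for the group mean and SD. Mrps21 goes from 125 to 150 in control to 18.4 to 23.9 in AP, whereas Mrpl17 overlaps between the groups; with library totals as the scale, Mrps21 is the only tested member called lower.

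The genes of the stalks that lead factors and transfer RNAs on and off the large subunit did not all pass the test. Mrpl1, of the stalk where spent transfer RNA leaves, was lower by TMM scaling with a log2 fold change of -1.11 ± 0.14 SE (edgeR adjusted p = 0.00016), and so was Mrpl12, the repeated protein of the factor-binding stalk, with -0.79 ± 0.17 SE (adjusted p = 0.00405). Mrpl10, which anchors Mrpl12 to the ribosome, had -0.31 (adjusted p = 0.164). Mrpl58, which can release chains from stalled ribosomes, had -0.26 (adjusted p = 0.130). With library totals all 4 were called higher.

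The 3 paralogs of bacterial protein S18 sit in different places on the mammalian ribosome and differed in value. Mrps18c, which holds the place of bacterial S18 in the small subunit, had normalised CPM of 19.5, 15.3 and 13.7 in control and 7.47, 7.46 and 7.94 in AP. The groups did not overlap, and it was 2.12-fold lower with TMM scaling (log2 fold change -1.09 ± 0.18 SE, edgeR adjusted p = 0.000782; 1.09 with library totals). Mrps18b, also in the small subunit, had 29.2, 28.4 and 19.4 in control and 11.7, 13.7 and 19.2 in AP. Control replicate 3 and AP replicate 3 were nearly equal, and the 1.73-fold lower level (-0.79 ± 0.23 SE, edgeR adjusted p = 0.0147; 1.37 with library totals) was not called without control replicate 1 or without control replicate 2 (adjusted p = 0.0562 in each). Mrps18a, in the large subunit, had 5.59, 6.57 and 4.66 in control and 4.02, 5.67 and 4.77 in AP, which overlap, with -0.22 ± 0.24 SE (edgeR adjusted p = 0.446; 1.95 with library totals). The difference between the paralogs was not tested.

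The 2 members called higher both share their place in the genome with another gene, as 19 members do in all. Mrps6, the counterpart of bacterial S6, was covered by few reads in control: 13, 11 and 8 counts, against 121, 103 and 149 in AP. Its normalised CPM were 1.61, 1.39 and 1.29 in control and 2.98, 2.56 and 4.38 in AP. The groups did not overlap, and it was 2.30-fold higher (log2 fold change 1.20 ± 0.34 SE, edgeR adjusted p = 0.0140), but it was not called without AP replicate 3 (adjusted p = 0.0539). Slc5a3, a myo-inositol transporter gene, overlaps Mrps6 on the same strand, and its log2 fold change was 1.5 (edgeR adjusted p = 0.00724). Reads of the overlap could be counted to either gene or to neither.

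Mrpl49, a mitochondria-specific large subunit protein, had normalised CPM of 17.4, 18.1 and 11.7 in control and 18.8, 28.0 and 27.9 in AP. Every AP sample was above every control sample, though AP replicate 1 only narrowly. It was 1.57-fold higher (log2 fold change 0.66 ± 0.22 SE, edgeR adjusted p = 0.0274), and it was not called without control replicate 3 (adjusted p = 0.0808), AP replicate 2 (0.0813) or AP replicate 3 (0.0790). It overlaps Syvn1, a ubiquitin ligase gene of the endoplasmic reticulum, by 70 bases on the opposite strand. The log2 fold change of Syvn1 was -1.93. With limma-voom neither Mrps6 nor Mrpl49 was called (adjusted p = 0.0590 and 0.0652).

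Among members that did not pass the test, Mrpl4, Mrpl43, Mrpl3, Mrpl18 and Mrpl19 had the smallest log2 fold changes, 0.00 to 0.07 with TMM scaling and 2.18 to 2.23 with library totals. Mrpl3 and Mrpl4 are proteins of the core with bacterial counterparts, and Mrpl4 reaches into the wall of the exit tunnel. Mrpl43 overlaps the helicase gene Twnk in the RefSeq table, whose log2 fold change was -1.35. Mrpl3 had 25.8, 27.8 and 26.8 normalised CPM in control and 24.5, 26.6 and 30.6 in AP, which overlap (log2 fold change 0.02 ± 0.13 SE, edgeR adjusted p = 0.891).

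To ask which members moved relative to the family itself, all genes were fitted again with the family's summed counts as the library size, which needs no scaling between libraries. In this fit 18 members were called higher and 10 lower and 41 were not called, beside 56.7% of all genes called higher, 14.3% lower and 71.0% in either direction. Of the 18 higher, 15 had Mrpl and 3 Mrps symbols, and of the 10 lower, 7 had Mrpl and 3 Mrps symbols. A change of 1 abundant gene in the total moves all others, so these calls are relative. As shares of the family's counts, AP and control did not overlap for 42 of the 69 members (60.9%), beside 75.6% of all tested genes whose counts were divided by the family's total in the same way. The members make up that total and other genes do not, so a lower percent among members is partly set by construction. The same holds for the calls in this fit.

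Among the 10 lower, Mrps21 had a log2 fold change against the family of -1.95 (edgeR adjusted p = 2.99e-06), Mrps24 of -1.41, Mrps34 of -1.10 and Mrpl14 of -0.91 (adjusted p = 0.00148). On the other side Mrps6 rose by 1.92 (adjusted p = 0.000776) and Mrpl49 by 1.39 (adjusted p = 0.000176). Mrpl47, another protein of the tunnel exit, rose by 1.16 (adjusted p = 0.00312), and it overlaps Actl6a and Ndufb5 in the RefSeq table. Mrps36, the dehydrogenase subunit, rose by 1.07 (adjusted p = 0.00413), as did Mrpl45, which holds the ribosome to the inner membrane (1.07, adjusted p = 0.00259). None of Mrpl47, Mrps36 and Mrpl45 was called with TMM scaling.

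Mrpl17, a protein of the tunnel exit with a bacterial counterpart, showed the difference between the fits. Its normalised CPM were 55.1, 49.7 and 41.8 in control and 47.8, 56.4 and 60.0 in AP, which overlap (log2 fold change 0.16 ± 0.14 SE, edgeR adjusted p = 0.339; 2.33 with library totals, called higher). Its share of the family's counts was 3.42%, 3.16% and 3.02% in control and 5.66%, 6.27% and 5.95% in AP, with every AP sample above every control sample, and it rose by 0.89 on the log2 scale against the family (edgeR adjusted p = 0.000223). The RefSeq table holds 2 pseudogenes named after Mrpl17.

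**Figure D4:**
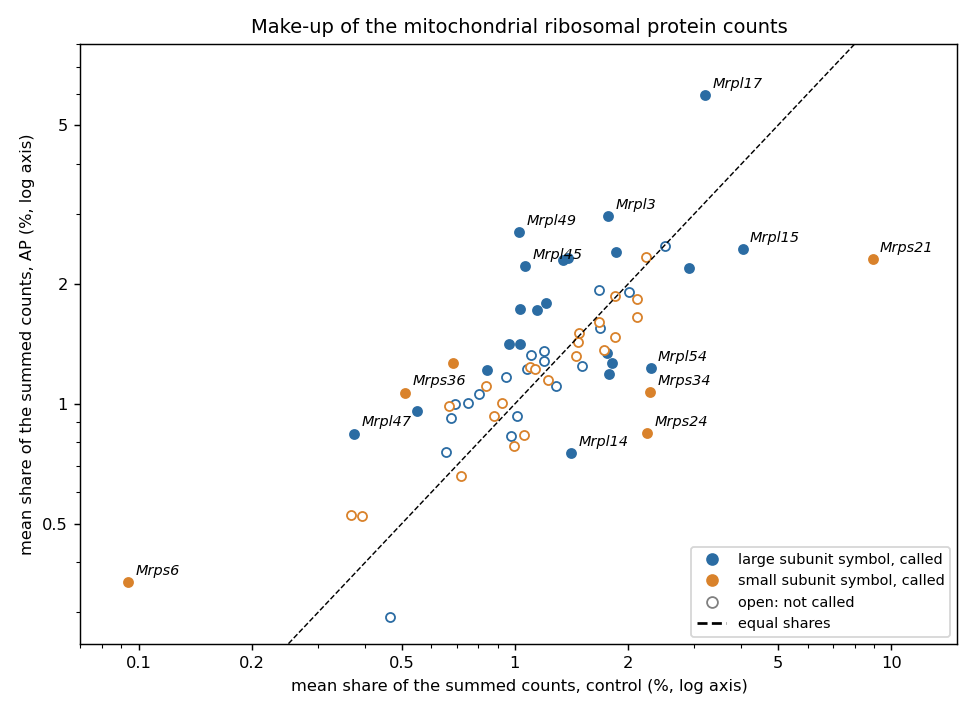
Mean share of the family's summed counts taken by each tested member in control (horizontal, log axis) and in AP (vertical, log axis), in percent and not corrected for transcript length, n = 3 per group. Filled points are the 28 members called in the fit against the family total; Mrps21 lies far below the line of equal shares (8.92% to 2.31%) and Mrpl17 above it.

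The rest of the mitochondrial translation system was counted in lists of related genes, again with TMM scaling. Over all tested genes, 30.5% were called lower and 34.1% higher. Of 5 mitoribosome proteins with other symbols, 3 were called lower: Aurkaip1 (log2 fold change -0.84), Gadd45gip1 (-0.81) and Dap3 (-0.32). Ptcd3 (0.28) and Chchd1 (-0.40) did not pass the test. Of 22 genes that assemble the mitochondrial ribosome, 12 were called lower and 2 higher (median -0.54). Mrm1, which methylates the large ribosomal RNA, had a log2 fold change of -2.31 ± 0.25 SE (edgeR adjusted p = 6.9e-05; -0.13 and not called with library totals), and Eral1, a chaperone of the small ribosomal RNA, -1.16. Mpv17l2 (0.90) and Trub2 (0.64), both needed for assembly, were called higher. Of 15 translation factors 6 were called lower and 0 higher (median -0.41), including the release factor Mtrf1 (-1.52) and the elongation factor Gfm1 (-0.82), while the elongation factor Tufm had 0.05 and was not called.

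Of 12 genes that copy and transcribe mitochondrial DNA, 6 were called lower, including the transcription factor Tfb2m (-1.62), the DNA-binding protein Ssbp1 (-1.66) and the helicase Twnk (-1.35), and 1 was called higher, the polymerase Polg (0.54). Of 21 import genes 6 (28.6%) were called lower, near the 30.5% of all tested genes, and 1 higher, against 34.1% of all (median -0.24). Of the genes the mitochondrial ribosome serves, 12 of 13 coded by mitochondrial DNA were called lower (median -1.40) and 56 of 67 tested nuclear respiratory chain genes were (median -0.87), with 1 higher. Cytosolic ribosomal protein genes were called lower in 71 of 74 (median -1.36). With library totals the medians of the last 3 lists were 0.77, 1.30 and 0.82. There 8 of 13, 64 of 67 and 63 of 74 genes were called higher, beside 88.2% of all tested genes. These medians lay below the all-gene median of 2.25, as with TMM scaling, an order that a change of scaling keeps by construction.

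**Figure D5:**
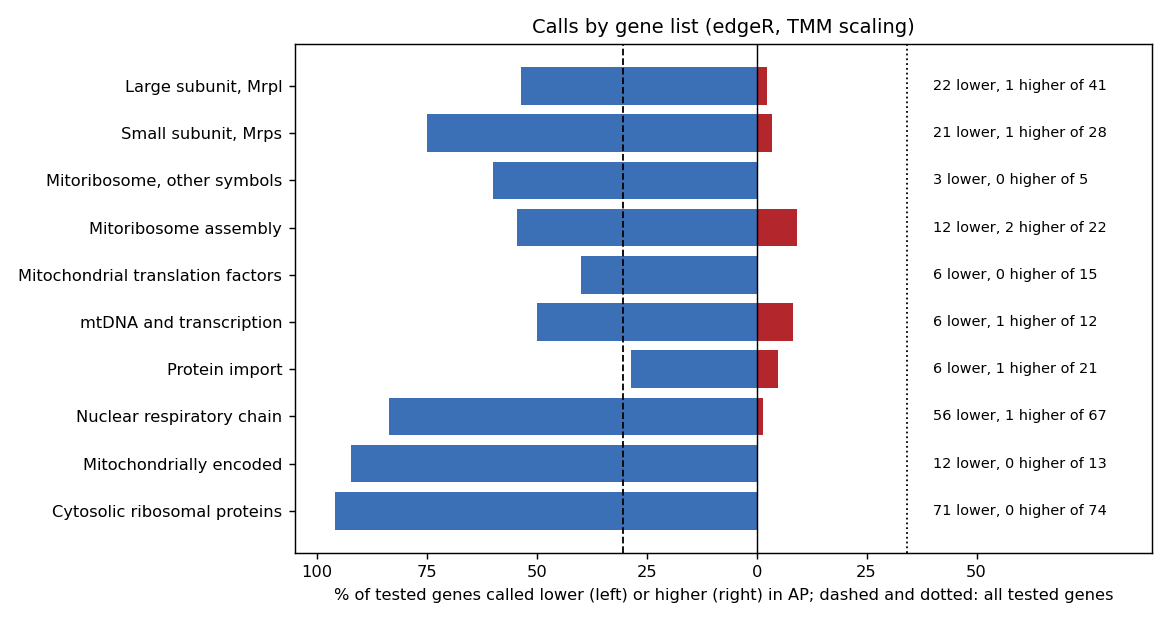
Percent of the tested genes of each list called lower (to the left) or higher (to the right) in AP with TMM scaling, with the counts at the right; the dashed and dotted lines mark 30.5% and 34.1%, the percents of all tested genes called lower and higher. The Mrpl and Mrps symbols sit between the import genes (6 of 21 lower) and the cytosolic ribosomal protein genes (71 of 74 lower). With library totals most of these genes are called higher.

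Of 10 nuclear regulators of mitochondrial genes, 2 (20%) were called lower and 3 higher. These shares are no larger than the 30.5% and 34.1% of all tested genes called lower and higher. Ppargc1a, a coactivator of mitochondrial biogenesis, had normalised CPM of 3.85, 2.53 and 3.37 in control and 0.247, 0.0995 and 0 in AP. It was lower in every AP sample, with a log2 fold change of -4.70 ± 0.71 SE (edgeR adjusted p = 0.00051; -2.53 with library totals, also called). Yy1 (0.38) and Nrf1 (0.39), whose motif letters were counted in the promoters, were called higher, as was the GABP subunit gene Gabpb2 (1.22), while Gabpa (0.19), the gene of its DNA-binding subunit, and Gabpb1 (0.23), that of a further partner subunit, did not pass the test. Transcript levels of these factors do not show their binding.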

How the data were processed

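Poly(A) RNA of 6 rat pancreas samples, 3 per group, was sequenced. The authors deposited raw read counts per gene, whole numbers without normalisation. Per the submitters' processing notes they used FastQC, STAR, featureCounts and DESeq2 with build mRatBN7.2; versions, annotation and strand setting: not given in the sources used here. Of 23096 rows, 3110 had no gene name (5.48% to 7.69% of control and 1.41% to 2.10% of AP counts) and stayed out; rows sharing a symbol were summed. Among members this joined 2 rows of Mrpl42. The lower-case symbols mrpl9, mrpl11 and mrpl24 fell outside the rule. Totals ranged from 14453584 to 18961353 counts per library, and low-count genes such as Mrps6 are least precise.

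The main test was edgeR 4.0.16 (R 4.3.3): TMM scaling, the default filter on low counts, a quasi-likelihood test of 3 AP against 3 control samples without covariate, and Benjamini-Hochberg adjustment over all tested genes, called at 0.05. Standard errors are the size of the log2 fold change divided by the root of the F statistic. Ratios within libraries were compared on the log2 scale with two-sided exact permutation tests in Python 3.11.15. Libraries of the same group all differed beyond counting noise. RefSeq tables on GRCr8 gave promoters, pseudogenes and neighbours. Of the members, 23 have a named pseudogene and 19 overlap another gene by whole gene span, introns included. Some of their reads could therefore be split or left uncounted.

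Named members were those called higher (at most 8), the 8 called lower with the most negative log2 fold change, the 4 with the highest mean normalised CPM, the 3 with the lowest p, the Mrps18 paralogs, the 5 uncalled with the smallest change, the 4 highest and 4 lowest against the family total, and the 3 lowest p of each related list; other genes were named for their role after their values were seen. The members and lists were chosen with earlier results of these data known. Alternatives were other scalings, DESeq2 1.42.0, limma-voom (limma 3.58.1), other filters, other totals, the replicate number as a block, and each library left out.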

Additional observations from a re-analysis of the deposited data

How the results depend on the processing

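With library totals as the scale, 11680 genes were called higher and 572 lower, 66 members were called higher and 1 lower, and the median of the members was 1.56. Of the 57 tested members with a negative log2 fold change with TMM scaling, only Mrps21 stayed negative. Among members named by rule, these turned positive: Mrps24 (0.042), Mrps34 (0.34), Mrpl14 (0.53), Mrpl54 (0.55), Mrpl15 (0.73) and Mrpl57 (0.78). So did Mrpl23 (0.86), Mrpl20 (1.03), Mrps18a (1.95), Mrps18b (1.37) and Mrps18c (1.09). All of these but Mrps18a were called lower with TMM scaling. DESeq2 size factors, upper quartile scaling and TMM without acinar genes each gave 2 members higher and 43 lower, and the DESeq2 Wald test 2 and 42. With limma-voom 0 members were called higher. Of the 43 members called lower, 33 were called lower in every alternative but library totals. Without 1 library at a time, 0 to 2 members were called higher and 34 to 42 lower, with a median of -0.70 (without AP replicate 3) to -0.55. Leaving acinar genes out of the total turned the log2 difference in the family's share of counts from 1.45 to -0.0088, and without 1 library at a time that value ran from -0.072 to 0.031, so it has no stable sign. The cause of these changes was not tested beyond what the choice of total or sample sets by construction.

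With the replicate number as a block, 4200 genes were called higher and 3704 lower, 2 members higher and 37 lower, with a member median of -0.62, and 14 and 7 against the family total. Deviations of same-numbered samples correlated at -0.03, 0.03 and -0.11, and not every sample correlated best with its own number. These values show no pairing by number but, with 3 samples per group, cannot exclude one. Counts against the family total were 13 to 25 higher and 7 to 13 lower over all alternatives. With 3 samples per group, ratios cannot pass a threshold of 0.05, and depth limits Mrps6 and Mrps17 most.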
